A study of Mus musculus with 13 samples.

Results

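The 35 genes described here encode the proteins that carry glucose into the cell, split it to pyruvate in the cytosol, turn pyruvate to lactate or pass it into mitochondria, and regulate these steps. They were chosen by symbol, and all 35 were found among the 24532 genes of the deposited tables. They comprise 3 glucose transporters, 17 glycolytic enzyme genes with their isoforms, 2 lactate dehydrogenases, 2 monocarboxylate transporters, the regulators Pfkfb2, Pfkfb3, Pfkfb4, Pdk1 and Bpgm, the hypoxia genes Hif1a and Egln3, and 4 genes of the entry of pyruvate into mitochondria, of which Pdha1 and Pdhb belong to pyruvate dehydrogenase. RNA from 7 sorted subsets of wild-type C57BL/6 mouse bone marrow (BM) cultures was sequenced in 13 libraries. Cultures with the cytokine FLT3L (FL-BM) gave mature FL-cDC2s (CD115- CX3CR1- CD83+, 2 libraries), immature FL-cDC2s (CD115- CX3CR1- CD83-, 2 libraries), mature FL-cDC1s (CD115- CX3CR1- CD83+, 1 library), immature FL-cDC1s (CD115- CX3CR1- CD83-, 2 libraries) and a cDC2-gated CD115+ CX3CR1+ subset that the study calls non-DCs (2 libraries). Cultures with GM-CSF (GM-BM) gave GM-DCs (2 libraries) and GM-Macs (2 libraries). The study concludes that its non-DCs are precursors of cDC2s, derived from dendritic cell progenitors and not from monocytes. It also found their expression profile close to that of GM-Macs. The cultures began from BM cells of mice 8 to 14 weeks old, in a medium with high glucose and pyruvate, and no mutation or further stimulus is given for any group. The labels do not say whether the 2 libraries of a subset came from separate cultures or mice, so a p-value below reflects the spread among the libraries sequenced, part or all of which may be technical.

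Glycolysis begins when a transporter of the GLUT family lets glucose into the cell and a hexokinase traps it as glucose phosphate. Phosphofructokinase commits it to the pathway, aldolase splits it, and enolase and pyruvate kinase complete the formation of pyruvate, which lactate dehydrogenase turns to lactate for export by monocarboxylate transporters. Several steps have isoforms made by separate genes, and the PFKFB enzymes set the level of the sugar phosphate that activates phosphofructokinase. Classical dendritic cells (cDCs) mature from antigen-capturing into T cell-stimulating cells, and activation of dendritic cells by microbial products is known to raise glucose use within hours. No such product is named for the sequenced cells.

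Total gene counts ranged from 46042095 to 71330242 reads per library, so counting error was small for all but the scarcest members. Levels below are FPKM, fragment counts divided by exon length and library size, which can be compared between genes. Fold changes come from edgeR fitted to the counts of all expressed genes, with adjusted p-values (Benjamini-Hochberg) over all of them, and a gene was called at 0.05. Libraries of 1 subset agreed best in non-DCs, where the biological coefficient of variation was 16.6%, and least in immature FL-cDC1s (38.8%) and GM-Macs (40.0%). The sorted phenotypes were present in the RNA, since Cd83 averaged 3805 FPKM in mature FL-cDC2s, against 218 FPKM in immature FL-cDC2s and 88.0 FPKM in non-DCs. Csf1r, which encodes CD115, averaged 0.816 FPKM in mature FL-cDC2s and 32.4 FPKM in immature FL-cDC2s, against 1200 FPKM in non-DCs. Of the 7 cDC2 markers, Cd209a, Clec10a and Mgl2 each averaged under 1 FPKM in mature FL-cDC2s and the other 4 at least 1 FPKM. Among those 4, Sirpa averaged 48.6 FPKM, against 212 FPKM in immature FL-cDC2s. In bulk RNA, fewer cells of a type and less RNA per cell cannot be told apart.

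The RNA of these genes was least abundant in mature FL-cDC2s and most abundant in GM-Macs. The 35 genes summed to 5546 and 6173 FPKM in mature FL-cDC2s, 9305 and 9738 FPKM in immature FL-cDC2s, 10592 FPKM in mature FL-cDC1s, 11371 and 15218 FPKM in immature FL-cDC1s, 12059 and 14901 FPKM in GM-DCs, 16417 and 13068 FPKM in non-DCs, and 17811 and 18447 FPKM in GM-Macs. The 2 mature FL-cDC2 libraries lay below the other 11 and the 2 GM-Mac libraries above them. Most of the sum came from 9 abundant enzymes (Gpi1, Aldoa, Tpi1, Gapdh, Pgk1, Pgam1, Eno1, Pkm and Ldha), which alone reached 3777 and 4539.9 FPKM in mature FL-cDC2s and 15502 and 16628 FPKM in GM-Macs. By mean FPKM, mature FL-cDC2s were the lowest of the 7 subsets for 21 of the 35 genes and the highest for 3, while GM-Macs were the highest for 14 and non-DCs for 9. These ranks were not counted over all genes. By FPKM, 49.4% of all 13242 genes tested had both mature FL-cDC2 libraries below both immature FL-cDC2 libraries, so low values there were not particular to the 35 genes. The width of the range differed between genes. Egln3 and Aldoc were also lowest in mature FL-cDC2s and highest in GM-Macs, while Hk3 was lowest in mature FL-cDC2s and highest in non-DCs. Eno3 and Pfkfb3 were highest in mature FL-cDC2s and Slc2a3 in immature FL-cDC2s. The ratio of the highest to the lowest subset mean was 121 for Eno3, 112 for Ldhb, 95.3 for Pfkfb3, 77.0 for Slc2a3, 55.0 for Egln3, 48.2 for Hk3 and 35.02 for Aldoc, against 2.22 for Pdhb and 2.42 for Bpgm.

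**Figure D1:**
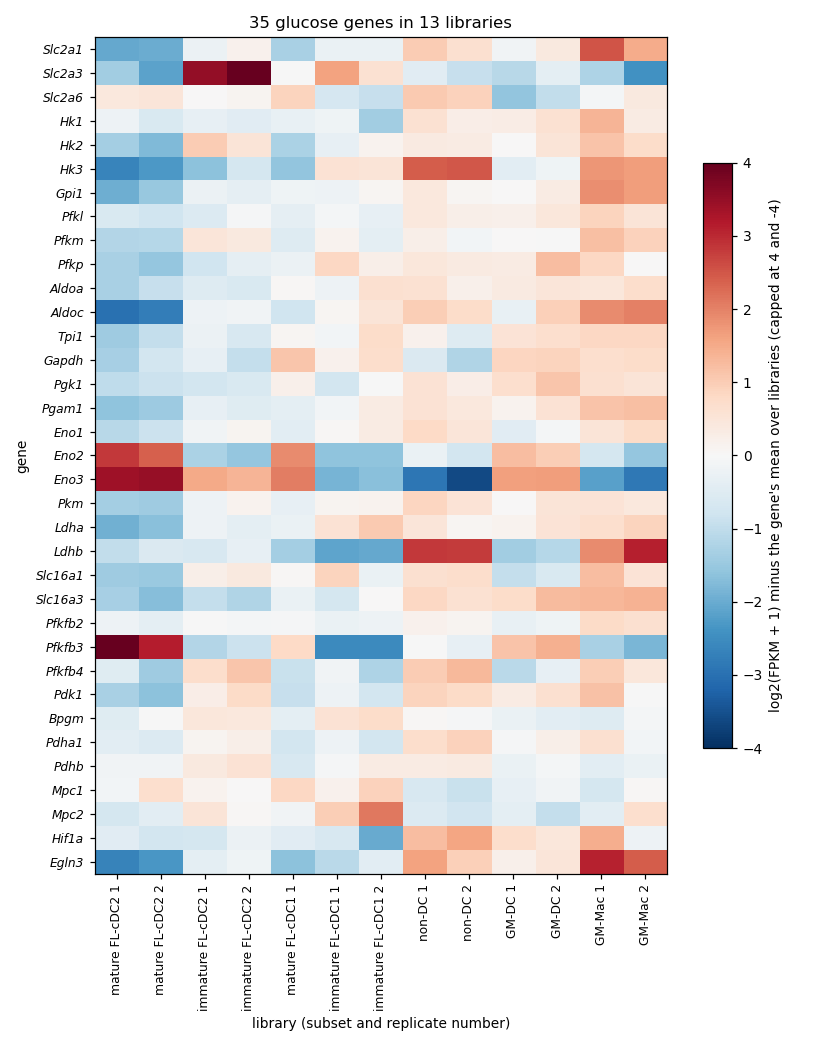
Level of each of the 35 genes (rows, ordered by role) in each of the 13 libraries (columns, grouped by subset), as log2(FPKM + 1) minus the gene's mean over libraries, capped at 4 and -4. Most rows are low in the 2 mature FL-cDC2 libraries, which hold the lowest subset mean for 21 genes, while Eno2, Eno3 and Pfkfb3 are high there. The same rank was not counted over all genes.

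The promoters of these genes are shown because many members fell together while Eno3 and Pfkfb3 rose. ACGTG is the core of the hypoxia response element bound by HIF, and CACGTG, the E-box bound by MYC and related factors, contains it on both strands. Windows from 250 bases before to 50 bases after the start were taken from RefSeq (GRCm38.p6), and 34 of the 35 genes had at least 1, giving 50 windows. ACGTG on either strand occurred in 46% of these 50 windows, belonging to 19 genes, and in 19.6% of all 32851 windows. CACGTG occurred in 12% against 7.15%, and a consensus of NF-κB in 10% against 8.46%. Matches are letters in a window, and no binding was measured. In the lines below, the sequence runs 5′ to 3′ on the strand of the gene, and capitals mark ACGTG on either strand.
Ldha: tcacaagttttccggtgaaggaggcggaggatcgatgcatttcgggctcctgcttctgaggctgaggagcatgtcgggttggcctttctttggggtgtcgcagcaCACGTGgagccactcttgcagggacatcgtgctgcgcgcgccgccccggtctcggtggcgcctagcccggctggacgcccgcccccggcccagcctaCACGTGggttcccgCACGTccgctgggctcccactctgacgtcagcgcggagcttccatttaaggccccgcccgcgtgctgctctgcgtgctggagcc
Egln3: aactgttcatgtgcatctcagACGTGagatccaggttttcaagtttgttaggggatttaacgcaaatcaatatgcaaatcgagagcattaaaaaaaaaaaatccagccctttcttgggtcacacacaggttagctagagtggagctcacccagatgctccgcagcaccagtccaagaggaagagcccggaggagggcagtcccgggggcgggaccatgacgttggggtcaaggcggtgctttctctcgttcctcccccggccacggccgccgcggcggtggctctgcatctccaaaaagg
Slc2a1: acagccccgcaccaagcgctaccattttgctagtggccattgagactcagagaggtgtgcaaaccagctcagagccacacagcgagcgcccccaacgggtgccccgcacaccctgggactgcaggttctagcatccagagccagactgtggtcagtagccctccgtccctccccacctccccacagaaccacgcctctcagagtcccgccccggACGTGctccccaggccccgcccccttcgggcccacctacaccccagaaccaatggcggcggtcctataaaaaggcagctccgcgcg
Pfkfb3: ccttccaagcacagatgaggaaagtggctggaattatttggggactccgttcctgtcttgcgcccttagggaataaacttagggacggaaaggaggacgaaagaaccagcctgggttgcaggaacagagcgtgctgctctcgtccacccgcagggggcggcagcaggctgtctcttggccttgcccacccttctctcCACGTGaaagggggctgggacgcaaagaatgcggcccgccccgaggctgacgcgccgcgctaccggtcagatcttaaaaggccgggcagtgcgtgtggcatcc
Eno3: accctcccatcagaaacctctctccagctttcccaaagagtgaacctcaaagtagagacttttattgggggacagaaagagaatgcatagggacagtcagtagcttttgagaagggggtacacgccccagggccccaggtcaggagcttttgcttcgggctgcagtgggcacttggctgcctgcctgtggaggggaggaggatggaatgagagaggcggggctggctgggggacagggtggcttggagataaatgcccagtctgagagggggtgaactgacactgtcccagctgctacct

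The 5 windows belong to genes with different courses. Ldha (chr7:46845554-46845853, plus strand), Egln3 (chr12:54203825-54204124, minus strand) and Slc2a1 (chr4:119108495-119108794, plus strand) were lower in mature FL-cDC2s than in the other subsets of the cDC2 gate, and their windows hold the letters. Pfkfb3 (chr2:11502041-11502340, minus strand) was higher, and its window holds a CACGTG. Eno3 (chr11:70656926-70657225, plus strand) was higher and its window holds none. The windows shown for Ldha, Pfkfb3 and Eno3 lie inside the spans of their genes. Genes that fell and a gene that rose thus both held the letters. The windows of Gpi1, Pfkfb4 and Pdk1, which also fell, and a further window of Ldha held none. A further window of Pfkfb3 held 1 ACGTG.

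Counts of called genes show how far each comparison moved this pathway beside the genome as a whole. All 35 genes were tested in every comparison. In mature over immature FL-cDC2s, 4 were higher and 14 lower, beside 22.5% of all 13242 genes tested higher and 24% lower, and the median log2 fold change was -0.44 for the 35 genes and 0.00 for all genes. In mature FL-cDC2s over non-DCs, 4 were higher and 28 lower (26.4% and 27.1% of all genes), with medians of -1.89 and 0.07. In immature FL-cDC2s over non-DCs, 2 were higher and 24 lower (23.6% and 24%), with medians of -1.27 and 0.01. These 3 comparisons share their libraries pairwise, and all 3 had a larger share of the 35 genes lower than of all genes. In GM-DCs over GM-Macs, 2 were higher and 11 lower (8.71% and 10.6% of 13083 genes), with medians of -0.61 and -0.05. In mature FL-cDC2s over GM-DCs, 3 were higher and 18 lower (7.75% and 12.9% of 14936 genes), with medians of -1.15 and -0.01. The share of the 35 genes called lower was also above that of all genes in both of these.

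The remaining comparisons are given with what single libraries and the scaling changed in them. In mature over immature FL-cDC1s, 4 were higher and 2 lower (12.6% and 8.28% of 14936 genes), with medians of -0.41 for the 35 genes and 0.00 for all. That fit had 1 mature library, whose spread was taken from the other subsets, and 11 genes were called without immature FL-cDC1 replicate 1. In immature FL-cDC2s over immature FL-cDC1s, 4 were higher and 9 lower (11.4% and 8.9%), but scaling by library size alone gave 7 higher and 3 lower, and the total fell to 7, 4 and 5 without immature FL-cDC2 replicate 1, immature FL-cDC2 replicate 2 and immature FL-cDC1 replicate 2, in that order. In non-DCs over GM-Macs, 3 were higher and 4 lower (9.29% and 11.2%), and library size alone gave 1 higher and 5 lower. That total fell to 0 without non-DC replicate 1 (6 of the 35 genes were higher and 8 lower at an unadjusted p under 0.05 with all libraries), to 1 without non-DC replicate 2 and to 4 without GM-Mac replicate 2. The 13 calls of GM-DCs over GM-Macs fell to 8 without GM-DC replicate 1.

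The values of mature and immature FL-cDC2s moved with the scaling. By FPKM, 26 of the 35 genes had both mature FL-cDC2 libraries below both immature ones, and 49.4% of all 13242 genes did too. The 4 genes with both mature libraries above (24.2% of all genes) were the 4 that edgeR called higher. Scaling the counts by library size alone in place of the trimmed mean of M-values (TMM) shifted the median of all genes from 0.00 to -0.40 on the log2 scale, so the fold changes below are relative to the TMM scale, on which the middle gene did not move. In the other comparisons that shift lay between -0.43 and 0.63.

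The glucose transporters diverged. Slc2a3 encodes GLUT3, a transporter with high affinity for glucose (chr6:122727809-122802363, mm10). It had 2.88 and 1.301 FPKM in mature FL-cDC2s, against 114 and 204 FPKM in immature FL-cDC2s. It was 9.08 FPKM in mature FL-cDC1s, against 29.6 and 14.3 FPKM in immature FL-cDC1s, and no library of non-DCs, GM-DCs or GM-Macs exceeded 6.63 FPKM. Immature FL-cDC2s thus stood above every other subset, and the fall in mature FL-cDC2s was 57.7-fold (log2 fold change -5.85, SE 0.52, adjusted p = 7.02e-05). Against non-DCs, immature FL-cDC2s were higher by 4.28 on the log2 scale (SE 0.48, adjusted p = 0.000301). Against immature FL-cDC1s they were higher by 2.46 (SE 0.63, adjusted p = 0.0209), a call that was lost without immature FL-cDC2 replicate 2 (adjusted p = 0.130) or immature FL-cDC1 replicate 2 (adjusted p = 0.129).

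Slc2a1 encodes GLUT1, the common transporter of proliferating and activated leukocytes (chr4:119108745-119137330), and it was ranked differently. It had 19.6 and 20.4 FPKM in mature FL-cDC2s, 71.9 and 95.7 FPKM in immature FL-cDC2s, 33.4 FPKM in mature FL-cDC1s, 69.7 and 69.8 FPKM in immature FL-cDC1s, 76.9 and 111 FPKM in GM-DCs, 173 and 133 FPKM in non-DCs, and 483 and 237 FPKM in GM-Macs. Mature FL-cDC2s were lowest and GM-Macs highest, with no overlap between these ends. Slc2a1 fell by 1.65 on the log2 scale in mature over immature FL-cDC2s (SE 0.24, adjusted p = 0.000955), fell by 3.14 in mature FL-cDC2s over non-DCs (SE 0.26, adjusted p = 4.1e-05) and fell by 2.15 in GM-DCs over GM-Macs (SE 0.45, adjusted p = 0.0206, but 0.0681 without GM-DC replicate 1). In mature over immature FL-cDC1s the log2 fold change was -1.14, with an adjusted p of 0.0894.

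Slc2a6, whose product GLUT6 resides on lysosomal membranes, went the other way with maturation. It had 159.7 and 167 FPKM in mature FL-cDC2s, against 121 and 129 FPKM in immature FL-cDC2s, and 223 FPKM in mature FL-cDC1s, against 75.6 and 62.4 FPKM in immature FL-cDC1s. Both mature subsets lay above their immature neighbours, by 0.81 on the log2 scale in FL-cDC2s (SE 0.19, adjusted p = 0.00888) and by 1.63 in FL-cDC1s (SE 0.33, adjusted p = 0.00722). The rise in FL-cDC2s was not called with library size scaling, on log2 FPKM or in the fit of all 13 libraries. As a share of the 3 transporters' summed FPKM, Slc2a6 held 87.7% and 88.5% in mature FL-cDC2s, against 39.3% and 30.1% in immature FL-cDC2s, where Slc2a3 held 37.2% and 47.6%. In GM-BM the comparison was with GM-Macs and not with a sorted immature stage. Slc2a6 had 39.5 and 59.7 FPKM in GM-DCs, against 113 and 157 FPKM in GM-Macs (log2 fold change -1.68, SE 0.39, adjusted p = 0.0293). That difference was not called without GM-DC replicate 1 (adjusted p = 0.219) or GM-Mac replicate 2 (adjusted p = 0.0513). Non-DCs held the most, with 248 and 229.5 FPKM, so mature FL-cDC2s were also lower than non-DCs. In the fit of all 13 libraries that log2 fold change was -0.77 (adjusted p = 0.0529).

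**Figure D2:**
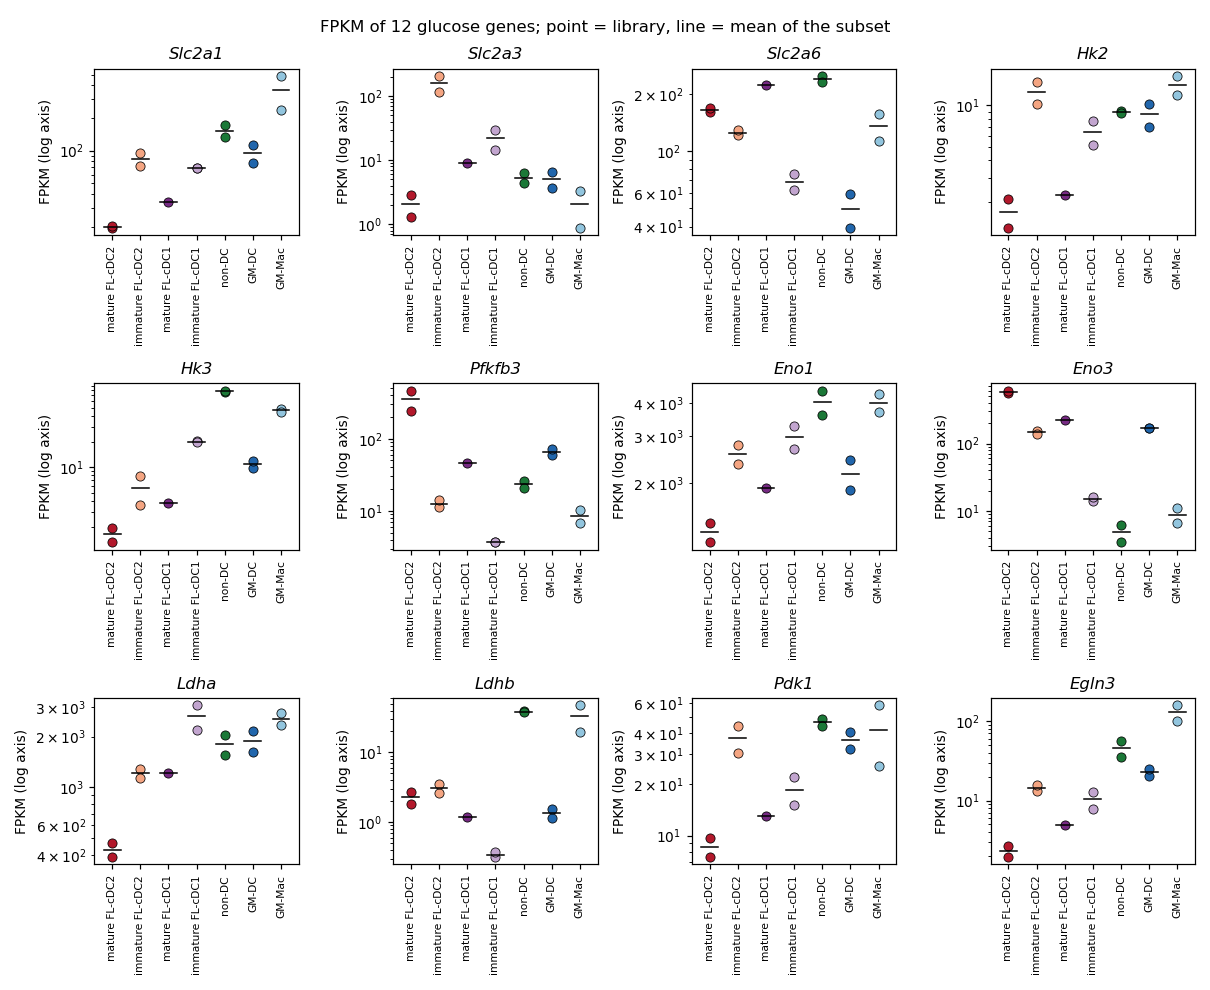
FPKM of the members the results turn on in each of the 13 libraries, 1 panel a gene, on log10 axes. Points are single libraries and short bars are subset means. Slc2a3 peaks in the 2 immature FL-cDC2 libraries (114 and 204 FPKM), while Pfkfb3 and Eno3 peak in the 2 mature FL-cDC2 libraries.

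The hexokinases, which trap glucose, differed in their course. Hk1, the broadly expressed isoform, overlapped between the FL-cDC2 stages, with 33.7 and 24.9 FPKM in mature FL-cDC2s, against 30.5 and 28.2 FPKM in immature FL-cDC2s (log2 fold change 0.42, adjusted p = 0.153). It had 31.1 FPKM in mature FL-cDC1s, against 34.4 and 14.3 FPKM in immature FL-cDC1s, whose second library was the lowest of the 13. Hk2, the inducible isoform that can bind mitochondria, had 2.09 and 1.299 FPKM in mature FL-cDC2s, against 14.8 and 10.2 FPKM in immature FL-cDC2s. It fell by 2.46 on the log2 scale (SE 0.28, adjusted p = 0.000259), and fell by 1.61 in mature over immature FL-cDC1s (SE 0.47, adjusted p = 0.0361, but 0.119 without immature FL-cDC1 replicate 2). Hk3, the isoform of myeloid cells, was highest in non-DCs and GM-Macs. It had 1.31 and 1.93 FPKM in mature FL-cDC2s, 3.61 and 7.87 FPKM in immature FL-cDC2s, 3.83 FPKM in mature FL-cDC1s, 20.3 and 19.7 FPKM in immature FL-cDC1s, 9.83 and 11.7 FPKM in GM-DCs, 76.6 and 79.3 FPKM in non-DCs, and 48.3 and 45.1 FPKM in GM-Macs. Each mature subset was below its immature neighbour, and every DC library was below every non-DC and GM-Mac library. Hk3 fell 56.4-fold in mature FL-cDC2s over non-DCs (log2 fold change -5.82, SE 0.45, adjusted p = 3.2e-05) and 5.08-fold in GM-DCs over GM-Macs (-2.34, SE 0.31, adjusted p = 0.00564). In mature over immature FL-cDC1s it fell by 2.51 (SE 0.49, adjusted p = 0.0062). The change in mature over immature FL-cDC2s was -1.41 (SE 0.38, adjusted p = 0.0171) and was not called without immature FL-cDC2 replicate 2 (-0.67, adjusted p = 0.0791) or mature FL-cDC2 replicate 1 (-1.19, adjusted p = 0.108).

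As shares of the summed hexokinase FPKM, Hk1 made up 90.9% and 88.5% in mature FL-cDC2s, against 62.3% and 60.9% in immature FL-cDC2s. Hk2 made up 5.62% and 4.61% in mature FL-cDC2s, against 30.3% and 22.1% in immature FL-cDC2s. Hk1 was thus the main hexokinase RNA of both stages, with the larger share in mature FL-cDC2s. Hk3 made up 52.6% and 58.5% in non-DCs, 29.2% and 42.6% in GM-Macs and 33.9% and 47.3% in immature FL-cDC1s, and 17.0% or less in every other library.

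The steps from glucose phosphate to the split sugars were lower in mature cells in some isoforms and not in others. Gpi1, the isomerase, had 80.7 and 111 FPKM in mature FL-cDC2s, 269 and 249.7 FPKM in immature FL-cDC2s, 319.8 and 398 FPKM in GM-DCs, 429 and 335 FPKM in non-DCs, and 1165 and 1005 FPKM in GM-Macs. GM-Macs stood above all other libraries, and Gpi1 fell by 1.83 on the log2 scale in GM-DCs over GM-Macs (SE 0.38, adjusted p = 0.0199, but 0.121 without GM-DC replicate 1). In mature over immature FL-cDC2s it fell by 1.02 (SE 0.24, adjusted p = 0.00936, but 0.0609 without mature FL-cDC2 replicate 1). Pfkl, the phosphofructokinase subunit named for liver, was the most abundant of its family, with 131 and 115 FPKM in mature FL-cDC2s and 136 and 194 FPKM in immature FL-cDC2s (log2 fold change -0.01, adjusted p = 0.981). Pfkm, the muscle subunit, was scarce, with 0.418 and 0.434 FPKM in mature FL-cDC2s, against 3.41 and 3.18 FPKM in immature FL-cDC2s (log2 fold change -2.53, SE 0.33, adjusted p = 0.000502). Aldoc, the aldolase known from brain, had 3.71 and 4.43 FPKM in mature FL-cDC2s, against 31.4 and 32.3 FPKM in immature FL-cDC2s, 72.5 and 60.8 FPKM in non-DCs, and 137 and 148 FPKM in GM-Macs. It fell by 2.54 in mature over immature FL-cDC2s (SE 0.21, adjusted p = 4.76e-05) and fell by 4.23 in mature FL-cDC2s over non-DCs (SE 0.23, adjusted p = 5.98e-06). The main aldolase, Aldoa, had 659 and 851 FPKM in mature FL-cDC2s and 1132 and 1060.4 FPKM in immature FL-cDC2s (log2 fold change -0.11, adjusted p = 0.741).

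The next steps, Tpi1, Gapdh and Pgk1, were not called between mature and immature FL-cDC2s on the TMM scale. Gapdh, often used as a reference gene, had 272 and 413 FPKM in mature FL-cDC2s, against 548 and 351 FPKM in immature FL-cDC2s (log2 fold change 0.04, adjusted p = 0.936), and 465 and 299.9 FPKM in non-DCs. It had 1252 and 1275 FPKM in GM-DCs, 1101 and 1139 FPKM in GM-Macs and 1474 FPKM in mature FL-cDC1s, so its level differed between subsets. The cDC2-gated libraries were deposited apart from these, so culture, lineage and a possible batch cannot be told apart here. In mature FL-cDC2s over GM-DCs Gapdh fell by 1.73 (SE 0.37, adjusted p = 0.00793, but 0.0797 without mature FL-cDC2 replicate 1), and in non-DCs over GM-Macs by 1.40 (SE 0.36, adjusted p = 0.0226). The non-DC difference was lost without non-DC replicate 1 (adjusted p = 0.0593), non-DC replicate 2 (0.186) or GM-Mac replicate 2 (0.0756). Pgam1, a phosphoglycerate mutase, fell by 0.70 in mature over immature FL-cDC2s (SE 0.19, adjusted p = 0.0183), and was not called without mature FL-cDC2 replicate 1 (adjusted p = 0.0940). Pkm, pyruvate kinase, had 638 and 607 FPKM in mature FL-cDC2s, against 1425 and 1829.7 FPKM in immature FL-cDC2s. Its log2 fold change of -0.97 (SE 0.24, adjusted p = 0.0128) was not called without mature FL-cDC2 replicate 1 (adjusted p = 0.0589) or mature FL-cDC2 replicate 2 (adjusted p = 0.0674). Against non-DCs, all of Aldoa, Tpi1, Pgk1, Pgam1, Eno1 and Pkm were lower in mature FL-cDC2s, with log2 fold changes from -1.25 (Tpi1) to -2.32 (Pkm). Of these 6, Tpi1 alone was not called without non-DC replicate 1 (adjusted p = 0.0639) or mature FL-cDC2 replicate 1 (0.0614).

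The enolases broke from this pattern. Eno1, the ubiquitous enolase, was the most abundant of the 35 genes in 12 of 13 libraries, the exception being GM-DC replicate 1, where Aldoa was higher. It had 1195 and 1417 FPKM in mature FL-cDC2s, against 2361 and 2783 FPKM in immature FL-cDC2s (log2 fold change -0.56, adjusted p = 0.0917). Eno1b, a near-identical gene, had 2.22% to 2.94% of the Eno1 level in the 13 libraries, so reads shared between the pair are uncertain. Eno3, the enolase of skeletal muscle (chr11:70653125-70662513), had 569 and 605 FPKM in mature FL-cDC2s, 155 and 139 FPKM in immature FL-cDC2s, 224 FPKM in mature FL-cDC1s, 14.1 and 15.995 FPKM in immature FL-cDC1s, 168 and 171 FPKM in GM-DCs, 6.27 and 3.44 FPKM in non-DCs, and 10.99 and 6.56 FPKM in GM-Macs. Each CD83+ or GM-DC library lay above every library of non-DCs, GM-Macs and immature FL-cDC1s, and immature FL-cDC2s lay between. Eno3 rose 5.36-fold in mature over immature FL-cDC2s (log2 fold change 2.42, SE 0.27, adjusted p = 0.000225) and 14.4-fold in mature over immature FL-cDC1s (3.84, SE 0.36, adjusted p = 7.1e-05). It was 106-fold higher in mature FL-cDC2s over non-DCs (6.73, SE 0.33, adjusted p = 4.53e-06) and 16.6-fold higher in GM-DCs over GM-Macs (4.05, SE 0.36, adjusted p = 0.00334). Eno3 was called in the 7 comparisons of a dendritic subset with another subset, and no alternative setting removed any of these calls.

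Eno3 held its largest share of enolase RNA in mature FL-cDC2s. That share of the summed enolase FPKM was 31.9% and 29.7% in mature FL-cDC2s, against 6.17% and 4.75% in immature FL-cDC2s, 10.5% in mature FL-cDC1s against 0.523% and 0.487% in immature FL-cDC1s, and 8.18% and 6.51% in GM-DCs against 0.296% and 0.151% in GM-Macs. The third isoform, Eno2, known from neurons, moved with it at far lower levels. It had 3511 and 2666 reads (20.6 and 14.9 FPKM) in mature FL-cDC2s, against 38 and 7 reads (0.270 and 0.0403 FPKM) in immature FL-cDC2s. It rose by 7.28 on the log2 scale (SE 0.71, adjusted p = 0.000113). In FL-cDC1s it had 1605 reads in the mature library and 0 in both immature ones, which makes it at least 660.0-fold higher with a floor of 3 reads per library. In GM-DCs it had 1151 and 935 reads, against 156 and 6 reads in GM-Macs, a log2 fold change of 3.36 with an adjusted p of 0.0691 (0.0397 in the fit of all 13 libraries). The 2 GM-Mac libraries were far apart.

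**Figure D3:**
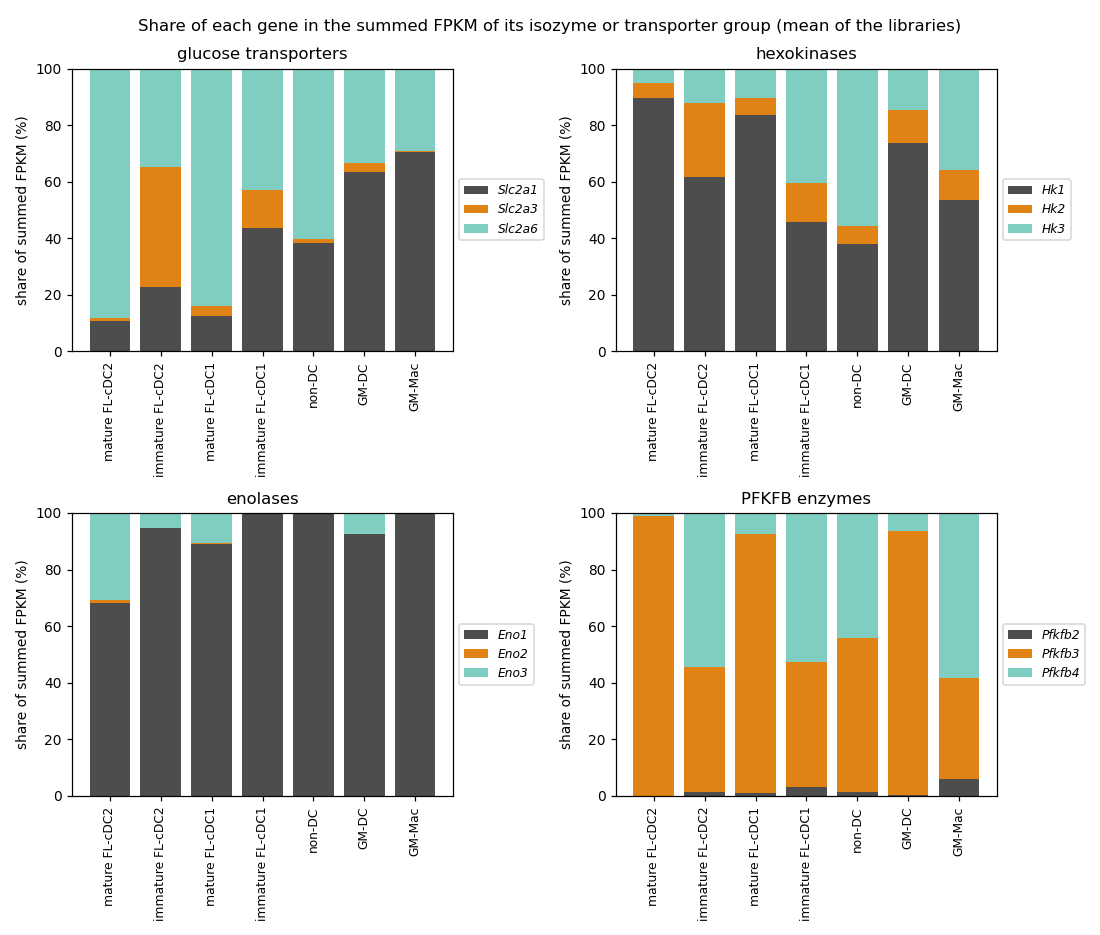
Share of summed FPKM held by each isoform of the glucose transporters, hexokinases, enolases and PFKFB enzymes (stacked bars from 0% to 100%, 1 bar per subset, each the mean of its libraries). Hk1, Eno3, Slc2a6 and Pfkfb3 take larger shares in mature than in immature FL-cDC2s, and Pfkfb3 holds 98.8% and 99.0% of the PFKFB sum in the 2 mature libraries.

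The RNA for lactate formation was lower in mature FL-cDC2s. Ldha, the subunit that favours lactate (chr7:46842274-46855627), had 389 and 468 FPKM in mature FL-cDC2s, 1293 and 1136 FPKM in immature FL-cDC2s, 1222 FPKM in mature FL-cDC1s, 2199 and 3058 FPKM in immature FL-cDC1s, 1620.5 and 2142 FPKM in GM-DCs, 2055 and 1563 FPKM in non-DCs, and 2353 and 2758 FPKM in GM-Macs. Mature FL-cDC2s were below all other libraries. Ldha fell by 1.08 on the log2 scale against immature FL-cDC2s (SE 0.23, adjusted p = 0.00615), fell by 2.27 against non-DCs (SE 0.24, adjusted p = 0.000146) and fell by 1.98 against GM-DCs (SE 0.33, adjusted p = 0.00206). Ldhb, the heart subunit, which favours pyruvate, had 39.2 and 37.9 FPKM in non-DCs and 19.9 and 47.4 FPKM in GM-Macs, and no dendritic library exceeded 3.53 FPKM. It fell by 4.27 in mature FL-cDC2s over non-DCs (SE 0.32, adjusted p = 2.62e-05), fell by 4.29 in immature FL-cDC2s over non-DCs (SE 0.32, adjusted p = 4.27e-05) and fell by 4.89 in GM-DCs over GM-Macs (SE 0.59, adjusted p = 0.00434). In mature over immature FL-cDC2s its log2 fold change was 0.02 (adjusted p = 0.974), so Ldhb separated the dendritic subsets from non-DCs and GM-Macs and was not called between the 2 stages. Even where it was highest it was 2.37% or less of summed lactate dehydrogenase FPKM.

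Slc16a1 encodes MCT1, which carries lactate and pyruvate in either direction, and Slc16a3 encodes MCT4, the exporter of highly glycolytic cells. Slc16a1 had 1.05 and 0.991 FPKM in mature FL-cDC2s, against 5.49 and 6.21 FPKM in immature FL-cDC2s and 7.53 and 8.05 FPKM in non-DCs. It fell by 2.104 in mature over immature FL-cDC2s (SE 0.23, adjusted p = 0.000186). Slc16a3 had 41.2 and 30.9 FPKM in mature FL-cDC2s, 53.2 and 44.4 FPKM in immature FL-cDC2s, 175 and 250.1 FPKM in GM-DCs, 183 and 161 FPKM in non-DCs, and 264 and 272 FPKM in GM-Macs. Both FL-cDC2 stages were low beside the GM-BM cells and non-DCs, and the difference between the stages was not called (log2 fold change 0.01, adjusted p = 0.987), although both mature libraries were lower by FPKM. In mature FL-cDC2s Slc16a3 fell by 2.47 against non-DCs (SE 0.22, adjusted p = 6.68e-05) and fell by 2.41 against GM-DCs (SE 0.35, adjusted p = 0.00102).

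Among the regulators, Pfkfb3 was the counterpart of Eno3. Its product makes the activator of phosphofructokinase and is best known as an inducible driver of glycolysis (chr2:11471430-11554071). Pfkfb3 had 463 and 239 FPKM in mature FL-cDC2s, 11.1 and 14.1 FPKM in immature FL-cDC2s, 46.4 FPKM in mature FL-cDC1s, 3.71 and 3.66 FPKM in immature FL-cDC1s, 58.9 and 72.3 FPKM in GM-DCs, 26.2 and 20.8 FPKM in non-DCs, and 10.1 and 6.74 FPKM in GM-Macs. The 2 mature FL-cDC2 libraries were above all others, followed by the GM-DC and mature FL-cDC1 libraries. Pfkfb3 rose 37.2-fold in mature over immature FL-cDC2s (log2 fold change 5.22, SE 0.39, adjusted p = 3.18e-05) and 12.1-fold in mature over immature FL-cDC1s (3.60, SE 0.41, adjusted p = 0.00022). It was 12.9-fold higher in mature FL-cDC2s over non-DCs (3.69, SE 0.36, adjusted p = 0.000105) and 6.71-fold higher in GM-DCs over GM-Macs (2.75, SE 0.35, adjusted p = 0.0053). Pfkfb4, a paralogue, moved the other way, with 5.40 and 2.32 FPKM in mature FL-cDC2s, against 13.4 and 17.9 FPKM in immature FL-cDC2s (log2 fold change -1.62, SE 0.38, adjusted p = 0.0102, but 0.0511 without immature FL-cDC2 replicate 2). Pfkfb4 was 53.7% and 55.4% of summed PFKFB FPKM in immature FL-cDC2s and fell to 1.15% and 0.961% in mature FL-cDC2s.

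Pdk1, the kinase that blocks pyruvate dehydrogenase, had 9.73 and 7.501 FPKM in mature FL-cDC2s, against 30.7 and 44.4 FPKM in immature FL-cDC2s and 48.4 and 44.2 FPKM in non-DCs. It fell by 1.72 on the log2 scale against immature FL-cDC2s (SE 0.26, adjusted p = 0.00111) and fell by 2.64 against non-DCs (SE 0.27, adjusted p = 0.000124). Hif1a, the oxygen-sensing factor that drives many glycolytic genes, had 31.2 and 25.2 FPKM in mature FL-cDC2s and 25.9 and 36.6 FPKM in immature FL-cDC2s, against 104 and 129.8 FPKM in non-DCs. It fell by 2.25 in mature FL-cDC2s over non-DCs (SE 0.27, adjusted p = 0.00027), while mature and immature FL-cDC2s overlapped (log2 fold change 0.26, adjusted p = 0.442). Egln3, a prolyl hydroxylase that acts on HIF and is itself a known HIF target (chr12:54178981-54203874), had 1.95 and 2.71 FPKM in mature FL-cDC2s, 13.2 and 15.5 FPKM in immature FL-cDC2s, 4.93 FPKM in mature FL-cDC1s, 7.83 and 12.9 FPKM in immature FL-cDC1s, 20.5 and 24.9 FPKM in GM-DCs, 55.6 and 34.9 FPKM in non-DCs, and 157 and 98.7 FPKM in GM-Macs. GM-Macs and non-DCs were highest and the mature cDCs lowest. Egln3 fell by 2.21 in mature over immature FL-cDC2s (SE 0.29, adjusted p = 0.000586), fell by 4.48 in mature FL-cDC2s over non-DCs (SE 0.32, adjusted p = 2.29e-05) and fell by 2.72 in GM-DCs over GM-Macs (SE 0.37, adjusted p = 0.00588). Protein levels and hydroxylation of HIF were not measured.

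Of the 4 genes of pyruvate entry, Pdhb had the narrowest range of the 35 genes. Pdhb, a subunit of the first enzyme of the pyruvate dehydrogenase complex, had 54.7 and 55.1 FPKM in mature FL-cDC2s, against 79.998 and 90.4 FPKM in immature FL-cDC2s (log2 fold change -0.22, adjusted p = 0.371). Pdha1, its catalytic partner, had 22.3 and 20.2 FPKM in mature FL-cDC2s and 32.6 and 35.4 FPKM in immature FL-cDC2s, against 49.1 and 58.0 FPKM in non-DCs. It was not called between the 2 stages (log2 fold change -0.26, adjusted p = 0.301) and was lower in mature FL-cDC2s over non-DCs (-1.54, SE 0.20, adjusted p = 0.000412) and in immature FL-cDC2s over non-DCs (-1.28, SE 0.20, adjusted p = 0.00135). Mpc1 and Mpc2 form the carrier that takes pyruvate into mitochondria. Mpc1 had 139.9 and 237 FPKM in mature FL-cDC2s, 164 and 153 FPKM in immature FL-cDC2s, and 96.5 and 80.8 FPKM in non-DCs. It was higher in mature FL-cDC2s over non-DCs by 0.89 (SE 0.27, adjusted p = 0.0255), but not without non-DC replicate 1 (adjusted p = 0.0753), non-DC replicate 2 (0.159) or mature FL-cDC2 replicate 2 (0.156), and not in the fit of all 13 libraries (0.117). Mpc2 was highest in immature FL-cDC1s, where its 2 libraries differed widely (48.9 and 108 FPKM), and Bpgm, which makes the phosphoglycerate that loosens oxygen from haemoglobin, was called in none of the 8 pairwise comparisons. Pfkfb2 stayed at or below 1.48 FPKM in every library.

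**Figure D4:**
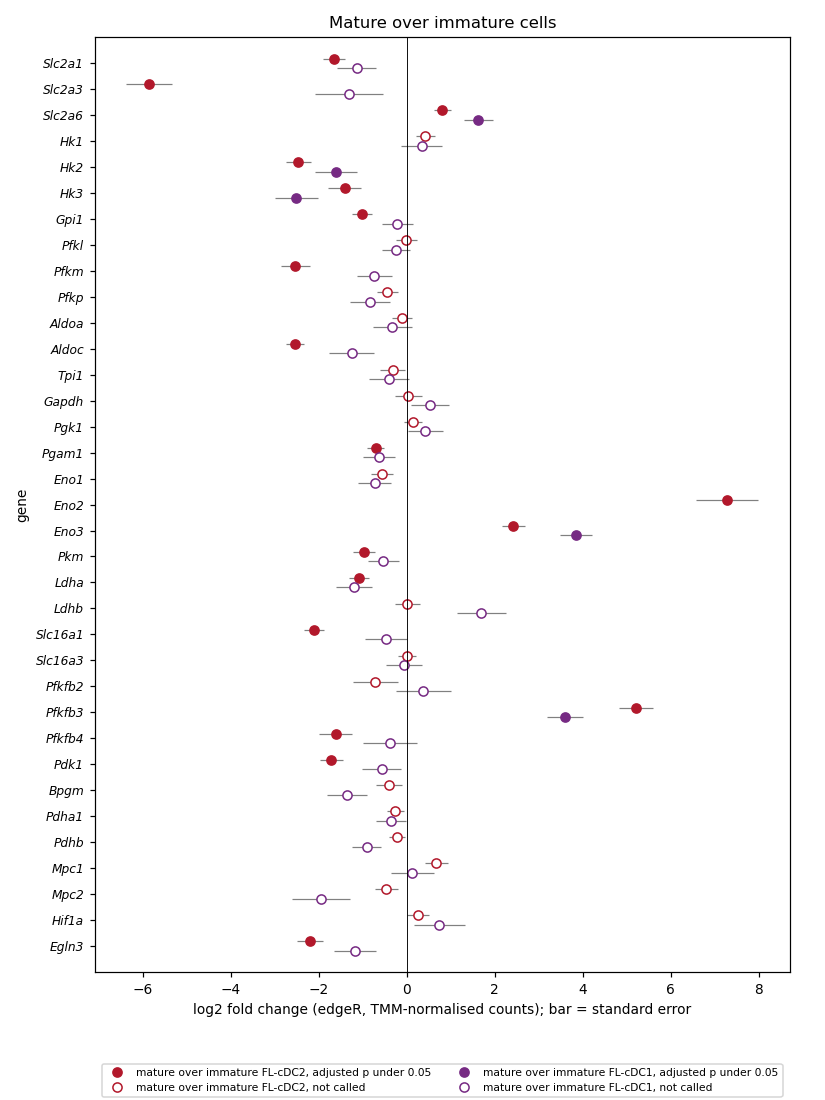
log2 fold change of each member in mature over immature FL-cDC2s and in mature over immature FL-cDC1s (points, with bars of 1 SE; filled points have an adjusted p under 0.05). Slc2a6, Eno3 and Pfkfb3 are to the right in both, Slc2a3 is at -5.85 in FL-cDC2s, and Eno2 of FL-cDC1s is left out because both immature libraries had 0 reads.

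Maturation could be compared between the lineages only with the single mature FL-cDC1 library. All 4 genes higher in mature FL-cDC2s (Slc2a6, Eno2, Eno3 and Pfkfb3) were also called higher in mature FL-cDC1s, and Hk2 and Hk3 were called lower in both. Of all genes tested in both fits, 44.8% of those higher in mature FL-cDC2s were also higher in mature FL-cDC1s, and 27.9% of those lower were also lower. The 4 higher and 2 lower calls in FL-cDC1s were 11.4% and 5.71% of the 35 genes, under the shares of all genes (12.6% and 8.28%). The other 12 genes lower in mature FL-cDC2s were not called in FL-cDC1s, and the test of the difference between the lineages passed for 1 of them, Slc2a3. Of the 35 genes, 0 had a larger and 1 a smaller log2 fold change in FL-cDC2s, beside 1.03% and 5% of all genes, and 1 and 6 of them passed an unadjusted p under 0.05 in edgeR. DESeq2 called 5 of the 35 genes in this test and limma 4. The difference for Slc2a3 was -4.58 (SE 0.93, adjusted p = 0.0178). It was not called without immature FL-cDC2 replicate 2 (-4.04, adjusted p = 0.0624), mature FL-cDC2 replicate 2 (-4.12, adjusted p = 0.0745) or immature FL-cDC1 replicate 2 (-4.24, adjusted p = 0.0622), and 3 genes were called without immature FL-cDC1 replicate 1.

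The change of mature FL-cDC2s over non-DCs was set against that of GM-DCs over GM-Macs. In the fits of the 6 cDC2-gated and the 4 GM-BM libraries, Eno3 and Pfkfb3 were higher in both dendritic subsets, and Slc2a1, Slc2a6, Hk3, Gpi1, Pfkm, Aldoc, Ldhb, Slc16a1, Pfkfb2, Pfkfb4 and Egln3 were lower in both. Of all genes tested in both fits, 6.77% were higher in both and 9.01% lower in both. The shared genes were 26.2% of all those higher and 32.2% of all those lower in mature FL-cDC2s over non-DCs. They were 80.9% of all those higher and 86.1% of all those lower in GM-DCs over GM-Macs. Of the shared calls, Slc2a6 and Pfkfb2 lost the call against non-DCs without non-DC replicate 1 (adjusted p = 0.0907 and 0.0725), non-DC replicate 2 (0.0631 and 0.0563) or 1 mature FL-cDC2 library (0.0565 and 0.0587), and Slc2a6 also lost it in the fit of all 13 libraries (adjusted p = 0.0529). In GM-BM, Slc2a1, Slc2a6, Gpi1, Pfkm, Aldoc and Pfkfb4 lost it without GM-DC replicate 1 (adjusted p 0.0681 to 0.295). The difference between the 2 changes was tested with all 13 libraries fitted together. In that fit the log2 fold changes of Eno3 were 6.702 in FL-BM and 4.06 in GM-BM, and the test of the difference gave 2.64 (SE 0.43, adjusted p = 0.00523). For Hk3 they were -5.84 and -2.33, with a difference of -3.51 (SE 0.51, adjusted p = 0.00293). In all, 1 gene had a larger and 6 a smaller log2 fold change in the FL-BM comparison (3.2% and 5.31% of all genes). The remaining 5 were Pfkp, Aldoc, Pkm, Slc16a3 and Pdk1, and none of them was called without any 1 of non-DC replicate 1, non-DC replicate 2, mature FL-cDC2 replicate 1, mature FL-cDC2 replicate 2 and GM-DC replicate 2. The adjusted p then lay between 0.0546 and 0.142, and the 2 calls of Eno3 and Hk3 remained in each. Of the 9 abundant enzymes, Gpi1 alone was called in GM-DCs over GM-Macs with the 4 GM-BM libraries. The other 8 had log2 fold changes between -1.14 (Eno1) and 0.09 (Pgk1). Eno1 had 1880 and 2445 FPKM in GM-DCs, against 3696 and 4343 FPKM in GM-Macs, with an adjusted p of 0.103. Pgam1 had 419 and 563 FPKM in GM-DCs, against 833 and 863 FPKM in GM-Macs (log2 fold change -1.03, adjusted p = 0.102). Both genes were called lower in the fit of all 13 libraries (adjusted p = 0.0241 and 0.0278).

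**Figure D5:**
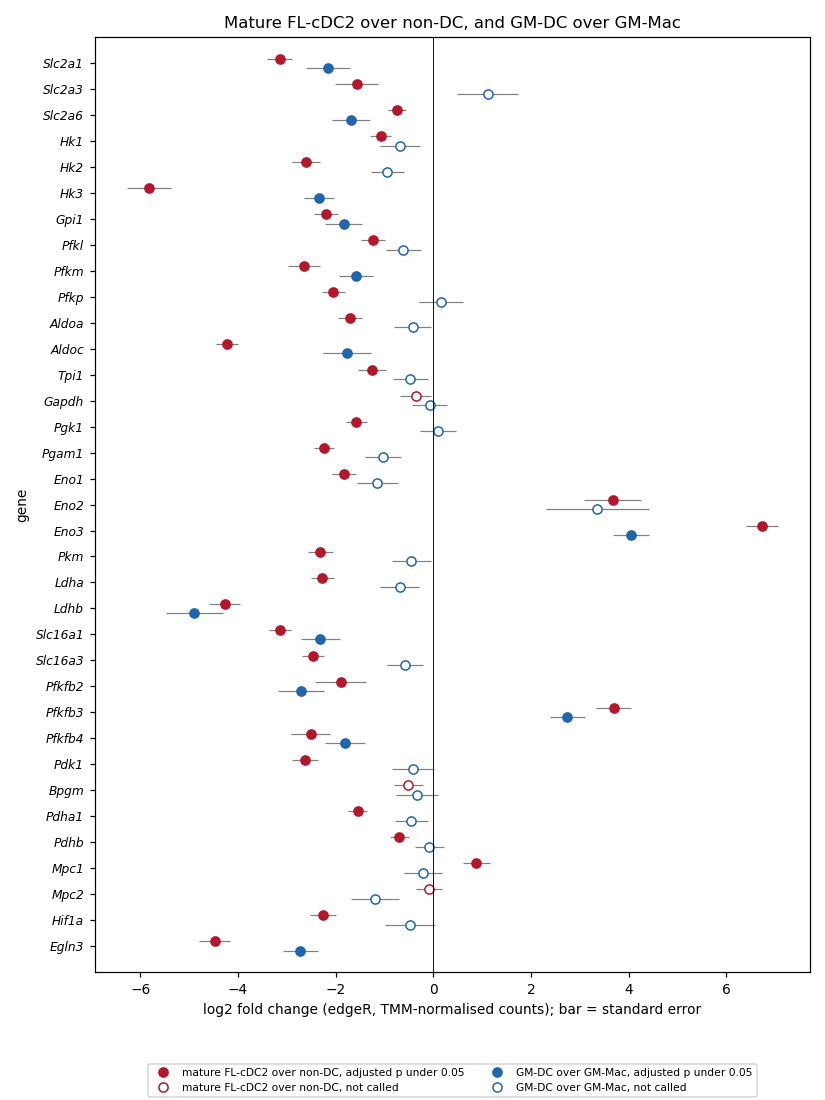
log2 fold change of each member in mature FL-cDC2s over non-DCs and in GM-DCs over GM-Macs (points, with bars of 1 SE; filled points have an adjusted p under 0.05). Eno3 lies at 6.73 and 4.05 and Hk3 at -5.82 and -2.34, and most FL-BM points lie to the left of 0.

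Several other programmes changed along the same comparisons, and their part in the results above was not tested. The 12 cell cycle markers summed to 115 and 123 FPKM in mature FL-cDC2s, against 1773 and 1914 FPKM in immature FL-cDC2s, and to 353 FPKM in mature FL-cDC1s, against 1055 and 1486 FPKM in immature FL-cDC1s. They summed to 104 and 92.5 FPKM in non-DCs. The 12 macrophage markers summed to 106 and 107 FPKM in mature FL-cDC2s and 1245 and 2319 FPKM in immature FL-cDC2s, against 54843 and 48846 FPKM in non-DCs. In GM-DCs they summed to 1522 and 2842 FPKM, against 52009.5 and 90849.5 FPKM in GM-Macs. The 10 mature DC markers summed to 16486 and 19513 FPKM in mature FL-cDC2s, against 350.4 and 306 FPKM in immature FL-cDC2s. Lineage markers moved too. The 7 cDC2 markers summed to 75.5 and 54.6 FPKM in mature FL-cDC2s, against 672 and 641 FPKM in immature FL-cDC2s. The 7 cDC1 markers summed to 480.2 and 545 FPKM in mature FL-cDC2s, against 133 and 126 FPKM in immature FL-cDC2s, although Xcr1, Clec9a, Tlr3 and Itgae each averaged under 1 FPKM in mature FL-cDC2s. The 4 plasmacytoid DC markers summed to 15.99 and 13.6 FPKM in mature FL-cDC2s, against 47.1 and 52.4 FPKM in immature FL-cDC2s. Neutrophil, erythroid and mast cell markers stayed at or below 10.8 FPKM summed in every library.

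Other genes of glucose use were examined through 7 lists of 102 genes in all. Beside each count stand the shares of all 13242 genes tested, 22.5% higher and 24% lower in mature over immature FL-cDC2s, and 26.4% and 27.1% in mature FL-cDC2s over non-DCs, with median log2 fold changes of 0.00 and 0.07. Among genes of glucose handling outside the 35 (16 tested of 30), 2 were higher and 8 lower in mature over immature FL-cDC2s (median log2 fold change -0.64), and 1 was higher and 8 lower in mature FL-cDC2s over non-DCs (median -1.06). Emb, the embigin chaperone of monocarboxylate transporters, had 4.65 and 5.33 FPKM in mature FL-cDC2s, against 205 and 217 FPKM in immature FL-cDC2s (log2 fold change -4.98, SE 0.24, adjusted p = 6.75e-06). Gpd2, the mitochondrial glycerol phosphate dehydrogenase, rose by 1.17 (SE 0.24, adjusted p = 0.00503). Of 9 glycogen genes tested, 2 were higher and 0 lower in mature over immature FL-cDC2s (median 0.21), so the share higher was near that of all genes. In mature FL-cDC2s over non-DCs 1 was higher and 6 lower (median -1.49), and in immature FL-cDC2s over non-DCs 0 were higher and 8 lower (median -1.80, beside 23.6% and 24% of all genes). Gyg, the glycogenin that primes glycogen, had 449 and 506 FPKM in mature FL-cDC2s, against 40.3 and 33.7 FPKM in immature FL-cDC2s (log2 fold change 4.11, SE 0.22, adjusted p = 8.52e-06). It had 250.1 FPKM in mature FL-cDC1s, against 48.1 and 50.3 FPKM in immature FL-cDC1s, and 362 and 401 FPKM in GM-DCs, against 106 and 87.4 FPKM in GM-Macs, so all 3 CD83-high subsets exceeded their neighbours. Pygl, the glycogen phosphorylase that releases glucose phosphate, had 106 and 98.5 FPKM in mature FL-cDC2s, against 35.5 and 43.0 FPKM in immature FL-cDC2s, and 119 FPKM in mature FL-cDC1s, against 6.69 and 5.29 FPKM in immature FL-cDC1s. Both differences passed the test (log2 fold change 1.79, SE 0.20, adjusted p = 0.000262, and 4.25, SE 0.37, adjusted p = 3.98e-05).

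Of 19 genes of the HIF pathway tested outside the 35, 6 were higher and 5 lower in mature over immature FL-cDC2s (median 0.37), beside 22.5% and 24% of all genes. Against non-DCs most calls were lower. In mature FL-cDC2s 4 were higher and 9 lower (median -0.61), beside 26.4% and 27.1% of all genes. In immature FL-cDC2s 1 was higher and 12 lower (median -0.99), beside 23.6% and 24% of all genes. Adm, encoding adrenomedullin, had 43.6 and 40.1 FPKM in mature FL-cDC2s, against 2.84 and 4.07 FPKM in immature FL-cDC2s (log2 fold change 4.003, SE 0.51, adjusted p = 0.000462). Ankrd37, a hypoxia-inducible gene, had 7.03 and 6.93 FPKM in mature FL-cDC2s, against 86.7 and 61.2 FPKM in immature FL-cDC2s (-2.98, SE 0.32, adjusted p = 0.000206). Adm and Ankrd37 thus moved in opposite directions. Vegfa, the angiogenic growth factor, had 1.92 and 1.65 FPKM in mature FL-cDC2s, against 33.0 and 37.9 FPKM in non-DCs (-4.53, SE 0.31, adjusted p = 1.85e-05). Of the regulators of glucose use, 2 of 6 tested were higher and 2 lower in mature over immature FL-cDC2s (median -0.38), and 1 was higher and 3 lower in mature FL-cDC2s over non-DCs (median -0.62). Myc, which drives glycolytic genes and growth, had 1.94 and 2.25 FPKM in mature FL-cDC2s, against 90.3 and 91.6 FPKM in immature FL-cDC2s (-5.01, SE 0.23, adjusted p = 6.64e-06). Txnip, which removes glucose transporters from the surface, had 9.01 and 10.1 FPKM in mature FL-cDC2s, against 140.1 and 94.8 FPKM in immature FL-cDC2s (-3.19, SE 0.24, adjusted p = 3.18e-05).

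In the mitochondrial matrix, 2 of 16 tricarboxylic acid cycle genes were higher and 5 lower in mature over immature FL-cDC2s (median 0.08), beside 22.5% and 24% of all genes. In mature FL-cDC2s over non-DCs 0 were higher and 10 lower (median -0.73), beside 26.4% and 27.1%. Fh1, fumarate hydratase, had 12.5 and 14.6 FPKM in mature FL-cDC2s, against 179.7 and 138 FPKM in immature FL-cDC2s (log2 fold change -3.13, SE 0.21, adjusted p = 2.05e-05), and Idh3a, the catalytic subunit of isocitrate dehydrogenase, fell by 2.64 (SE 0.19, adjusted p = 2.98e-05). Of 8 further genes of the pyruvate dehydrogenase complex and its kinases and phosphatases, 3 were higher and 1 lower in mature over immature FL-cDC2s (median 0.58), and 1 was higher and 5 lower in mature FL-cDC2s over non-DCs (median -0.91). The kinase Pdk3 rose by 0.89 (SE 0.19, adjusted p = 0.00603) in mature over immature FL-cDC2s, in the opposite direction to Pdk1. Of 6 pentose phosphate genes tested, 0 were higher and 2 lower in mature over immature FL-cDC2s (median -0.09), Taldo1 and Tkt, and 1 was higher and 4 lower in mature FL-cDC2s over non-DCs (median -0.82). In GM-DCs over GM-Macs these 3 lists held 1 called gene (8.71% of all genes were higher and 10.6% lower), Pgd of the pentose phosphate pathway, with 59.6 and 91.7 FPKM in GM-DCs, against 244 and 188 FPKM in GM-Macs (-1.75, SE 0.38, adjusted p = 0.0224).

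Some values rest on shared sequence. In the GENCODE vM21 annotation, 10 of the 35 genes overlap another gene of the tables in their exons. Those of Pfkp share 748 bases with Pitrm1 on the other strand, those of Pdha1 share 603 bases with Map3k15 and those of Mpc1 share 480 bases with 4930506C21Rik, and smaller overlaps of 18 to 157 bases concern Hk1, Hk3, Pfkm, Pfkfb2, Gapdh, Tpi1 and Aldoa. Whether the counting used strand is not given in the sources used here, so reads in these stretches are uncertain. Slc2a3, Eno2, Eno3 and Pfkfb3 are not among them.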

How the data were processed

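The members and the gene lists were chosen with earlier results of these data known. Libraries were made with the SMART-Seq v4 low-input kit, in which cDNA is amplified by PCR and carries no molecular identifiers, so amplification adds noise to the counts. The authors deposited read counts per gene and FPKM from StringTie 1.3.4d on mm10. The paper names HISAT 2.1.0 as aligner and the submitters' processing notes name STAR 2.6.0c and HTSeq, and which made each column was not settled. FPKM are scaled to the library total. Depth was 46042095 to 71330242 reads. Counts were fitted with edgeR 4.0.16 (quasi-likelihood, filterByExpr, TMM) in R 4.3.3. The cDC2-gated comparisons used their 6 libraries, GM-DC over GM-Mac its 4, and the rest all 13. SEs were obtained from the F statistic. All 35 genes were named, and from each list up to 2 called genes per direction with a mean of at least 10 FPKM. Alternatives were DESeq2 1.42.0, limma 3.58.1 on log2(FPKM + 1), other scalings and filters, single libraries left out and replicate blocks. For some of the comparisons the fit was also run on simulated counts with the same spread for every gene, unlike the data, and the outcome is not reported here. The FL-cDC1 and GM-BM libraries were deposited in other tables than the cDC2-gated ones, and whether they were sequenced together is not given in the sources used here.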

Additional observations from a re-analysis of the deposited data

Results flagged for a closer look

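In 8 cases the test of a difference between 2 contrasts passed for a member, each in edgeR fitted to all 13 libraries. For Slc2a3 the change with maturation was lower in FL-cDC2s than in FL-cDC1s by 4.58 on the log2 scale (difference -4.58, adjusted p = 0.0178), with 1 mature FL-cDC1 library behind it. In the difference of mature FL-cDC2s over non-DCs from GM-DCs over GM-Macs, Eno3 was higher (2.64, adjusted p = 0.00523). In the same test Hk3 (-3.51, adjusted p = 0.00293), Aldoc (-2.51, adjusted p = 0.0235), Pdk1 (-2.25, adjusted p = 0.0235), Pfkp (-2.24, adjusted p = 0.0237), Slc16a3 (-1.92, adjusted p = 0.0347) and Pkm (-1.90, adjusted p = 0.0183) were lower. The 12 macrophage markers differed between the same subsets, and their part in these values was not tested.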

How the results depend on the processing

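No member's call changed direction under any alternative. All calls were kept in every alternative for 12 of 18 members in mature over immature FL-cDC2s, 26 of 32 in mature FL-cDC2s over non-DCs, 17 of 26 in immature FL-cDC2s over non-DCs, 6 of 13 in GM-DCs over GM-Macs, 0 of 7 in non-DCs over GM-Macs, 5 of 6 in mature over immature FL-cDC1s, 3 of 13 in immature FL-cDC2s over immature FL-cDC1s and 15 of 21 in mature FL-cDC2s over GM-DCs. With DESeq2, 11 members were called in mature over immature FL-cDC1s, 5 in the difference of maturation between the lineages and 14 in the difference of mature FL-cDC2s over non-DCs from GM-DCs over GM-Macs, against 6, 1 and 7 with edgeR. With limma on log2(FPKM + 1), 11 were called in non-DCs over GM-Macs, 10 in mature over immature FL-cDC1s and 4 in the difference of maturation. A pseudocount of 0.1 gave 11, 11 and 4, and 12 in the difference of mature FL-cDC2s over non-DCs from GM-DCs over GM-Macs. Without a filter limma called 7 in GM-DCs over GM-Macs, 8 in immature FL-cDC2s over immature FL-cDC1s, and 2 and 11 in the 2 differences. Library size alone called 3 in the difference of maturation. The cause of these shifts was not tested.

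Leaving out 1 library at a time gave 15 to 20 calls in mature over immature FL-cDC2s, 26 to 29 in mature FL-cDC2s over non-DCs, 24 to 25 in immature FL-cDC2s over non-DCs, 8 to 15 in GM-DCs over GM-Macs, 0 to 7 in non-DCs over GM-Macs, 5 to 11 in mature over immature FL-cDC1s, 4 to 15 in immature FL-cDC2s over immature FL-cDC1s, 16 to 19 in mature FL-cDC2s over GM-DCs, and 0 to 3 and 2 to 8 in the 2 differences. Same-numbered libraries deviated together with correlations between -0.158 and 0.309. With 2 libraries per subset these values cannot show whether same-numbered libraries shared a culture or a sort, and the main fits did not pair them. With the replicate block the calls were 18 in mature over immature FL-cDC2s, 31 in mature FL-cDC2s over non-DCs, 26 in immature FL-cDC2s over non-DCs, 14 in GM-DCs over GM-Macs, 7 in non-DCs over GM-Macs, 14 in immature FL-cDC2s over immature FL-cDC1s, 21 in mature FL-cDC2s over GM-DCs and 9 in the difference of mature FL-cDC2s over non-DCs from GM-DCs over GM-Macs. With crossed numbers, chosen after seeing the data, 18 were called in mature over immature FL-cDC2s and 13 in immature FL-cDC2s over immature FL-cDC1s. With 2 libraries per subset and 1 of mature FL-cDC1s, differences near the threshold depend on single libraries.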
